A study of Mus musculus with 18 samples.

Results

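Transcripts of immortalized mouse brown preadipocytes were compared between cells that received FGF6 and cells that received vehicle for 4 h, the earliest of the 3 time points sequenced in the series (4, 8 and 24 h). The comparison took 6 libraries, 3 labelled FGF6.4h and 3 labelled Veh.4h, out of 18 in all. Every gene with enough counts for a test was kept, which left 15071 of the 48023 genes in the count table. The cells are a line of stromal vascular cells from brown fat of the mouse, immortalized with the SV40 T antigen, so both groups carry the viral protein, and both were kept in growth medium with serum, to which the FGF6 or its vehicle was added. The labels name the cell type, the treatment and the time, but not the strain, the dose or whether the 3 libraries of a group came from separate cultures. P-values therefore measure the spread between libraries of a group, which may be technical. That spread was estimated over all 18 libraries, those at 8 and 24 h included.

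FGF6 is a secreted fibroblast growth factor that binds FGF receptor tyrosine kinases with heparan sulphate as cofactor. The activated receptor phosphorylates the adaptor FRS2, which recruits GRB2, SOS and GAB1 and so switches on the RAS, RAF, MEK and ERK cascade and the PI3K and AKT pathway. ERK phosphorylates ETS and AP-1 factors, the immediate early genes follow within the first hour, and these in turn drive a later wave that holds the pathway's own inhibitors, the Sprouty and Spred proteins and the dual specificity phosphatases. In fat precursors FGF signalling is known for supporting proliferation, and BMP signalling for commitment to the fat lineage.

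Total counts at 4 h lay between 29408562 and 31606650 in the vehicle libraries and between 25652593 and 33017444 in the FGF6 libraries, so that 3 counts, the limit that a count of 0 allows, corresponded to 0.0927 to 0.122 CPM (the usual count unit that sets all library totals equal, here after TMM scaling). Of 9 markers of fat cell precursors, 8 were expressed, with summed levels of 6531 to 6695 CPM in the vehicle and 6444 to 6670 CPM in the FGF6 libraries, and Dlk1 had no count. Within that sum 5 of the 8 were called lower (Col1a1, Ly6a, Pdgfra, Pdgfrb and Thy1) and 2 higher (Itgb1 and Vim), with a median log2 fold change of -0.20. The shares lower and higher were 62.5% and 25%, against 34.2% and 28.6% of all genes tested. Of 6 markers of brown precursors, Ebf2, En1, Prdm16 and Eva1a were expressed (84.0 to 86.8 and 79.4 to 86.4 CPM in sum), whereas Myf5 had no count and Zic1 at most 1 count in a library. Markers of other cell types were near 0 for macrophages (Ptprc and Itgam at most 2 counts, Adgre1 none) and endothelium (Pecam1 at most 7 counts, Tie1 at most 1, Emcn none). Of the 2 endothelial markers tested, Cdh5 rose from 0.0324, 0.155 and 0.0668 to 0.444, 0.669 and 0.691 CPM and Vwf was at -0.27 ± 0.28 on the log2 scale (edgeR adjusted p = 0.411), with a sum of 1.33 to 1.64 CPM with vehicle and 1.41 to 2.14 CPM with FGF6. Of the macrophage markers tested, Cd68, a lysosomal protein, rose from 10.6, 11.1 and 11.6 to 16.3, 16.7 and 16.6 CPM and Csf1r fell from 4.15, 3.15 and 3.64 to 1.29, 1.15 and 1.79 CPM. The muscle regulators Myog and Myod1 were present at low levels, Myog at 4.605, 4.73 and 3.74 CPM and Myod1 at 3.60, 3.25 and 2.97 CPM in the vehicle libraries. Fgf6 itself had no count in any of the 6 libraries at 4 h, so the endogenous gene offers no check of the labels.

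At this first time point the response was already broad and deep. Genes were called at a Benjamini-Hochberg adjusted p under 0.05 in edgeR's quasi-likelihood test. Of the 15071 genes, 4308 (28.6%) were higher and 5152 (34.2%) lower with FGF6, so that 62.8% were called in either direction. Most of these differences were under 2-fold, and 2404 of the genes called (25.4%) differed by under 0.25 on the log2 scale. At least 2-fold, 748 genes (4.96% of those tested) rose and 962 (6.38%) fell, the latter 602 where 10 counts were required in each library. Fitting only the 6 libraries at 4 h gave 783 in place of 962. Increases reached further than decreases, with 79 genes at least 8-fold higher against 48 at least 8-fold lower. The balance of directions depended on the scaling and on the libraries fitted. TMM factors, which assume that most genes do not change, gave 45.5% of the calls as higher, and library sizes alone gave 33.3%, with a median log2 fold change over all genes of -0.15 in place of -0.05. With TMM factors and only the 6 libraries at 4 h, 50.1% of the calls were higher, with a median of -0.01. DESeq2 with its size factors gave 48.5%. In bulk RNA, fewer cells of a type and less RNA per cell cannot be told apart.

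**Figure D1:**
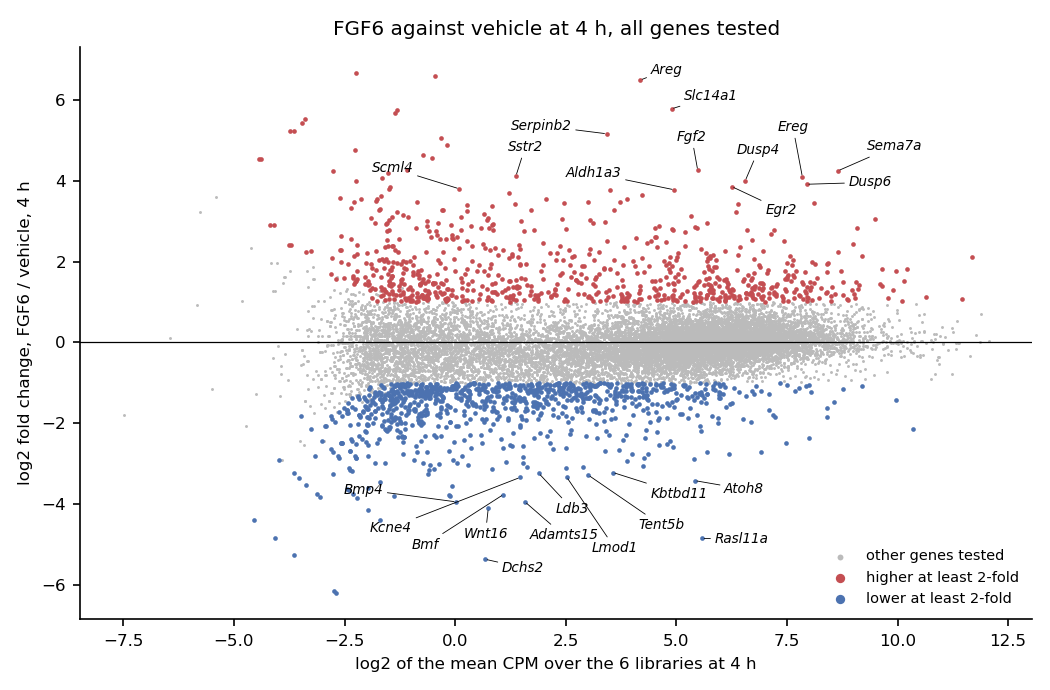
Log2 fold change of FGF6 over vehicle at 4 h (vertical axis) against the log2 of the mean CPM over the 6 libraries (horizontal axis), 1 point for each of the 15070 genes tested with a count at 4 h. Genes changed at least 2-fold at an adjusted p under 0.05 are coloured, 748 higher and 962 lower, and the 12 largest increases and decreases named in the text are labelled, from Areg at 6.48 to Dchs2 at -5.36.

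The largest increases were headed by secreted growth factors, inhibitors of ERK signalling and cell surface proteins. Areg encodes amphiregulin, a ligand of the EGF receptor. Its level was 0.519, 0.340 and 0.334 CPM in the vehicle libraries and 35.7, 33.4 and 38.9 CPM in the FGF6 libraries. No library of one group reached the other, and the log2 fold change was 6.48 ± 0.11 (standard error, edgeR adjusted p = 3.34e-24), an 89.4-fold increase. Slc14a1, a urea transporter, lay at 1.23, 0.896 and 1.07 CPM with vehicle and at 54.4, 59.5 and 61.1 CPM with FGF6, 54.7-fold higher. Serpinb2, plasminogen activator inhibitor 2, went from 1.01, 0.433 and 0.300 to 21.6, 18.8 and 22.2 CPM, with the vehicle libraries spread over more than 3-fold and all far below the FGF6 libraries. Fgf2, which encodes another ligand of the same receptors, rose from 5.03, 4.20 and 4.11 to 82.7, 82.8 and 89.5 CPM (19.1-fold). Sema7a, a membrane-anchored semaphorin, rose from 42.0, 41.0 and 38.3 CPM with vehicle to 761, 770.5 and 764 CPM with FGF6.

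The other 7 genes of the 12 rose between 13.7-fold and 17.3-fold. They were Sstr2, a somatostatin receptor (0.279 ± 0.0124 to 4.91 ± 0.468 CPM, mean ± SD, n = 3), Ereg, the EGF receptor ligand epiregulin (25.5 ± 0.633 to 435 ± 24.6 CPM), the phosphatase genes Dusp4 and Dusp6, the zinc finger factor Egr2, Scml4, a relative of the Polycomb protein SCM (0.141 ± 0.0857 to 1.99 ± 0.295 CPM), and Aldh1a3, an enzyme that makes retinoic acid (4.19 ± 0.7997 to 57.5 ± 0.900 CPM). Their log2 fold changes had standard errors of 0.06 to 0.36, the widest being that of Scml4. Areg and Ereg are neighbours on chromosome 5 (91139599 to 91148432 and 91074622 to 91093646 in GRCm38). Exonic bases shared with another gene may blur 3 of the 12, since the strand setting of the count is not stated. These were Fgf2 (895 of 6782 bases), Serpinb2 (291 of 2349) and Ereg (141 of 4128). Of all genes named here, 12 share at least 20% of their exonic bases and are uncertain. The reason is the same for Kbtbd11, Spry1, Dusp5, Phlda1, Ccnd1, Fosl1, Jund, Cebpb, Irs1, Tagln and Hoxa7. Hyal1 shares 1961 of 3777 bases with Hyal3 and Naa80 on its own strand, so it is uncertain at any strand setting.

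The 250 bases before the start sites of the largest increases are printed below to show which binding letters lie next to them. Of the 12 largest increases, 7 had an entry in RefSeq on GRCm38.p6. By the naming rule the first 5 were taken, of which that of Fgf2 is not printed because GENCODE places it within exons. The other entries, Dusp6 and Egr2, held none of the motifs below and the E-box letters, respectively. Capitals mark letters of the motifs searched on both strands, which were TGACGTCA (bound by CREB and ATF factors), TGANTCA (AP-1), CCGGAAG (ETS), CACGTG (E-box, bound by MYC), GCGGGGGCG (EGR) and the CArG box of SRF. Areg (chr5:91139349-91139598, plus strand) and Sstr2 (chr11:113619077-113619326, plus strand) each held the TGACGTCA letters close to the start site, those of Areg at -61 to -54 and those of Sstr2 at -58 to -51, where the EGR letters followed at -47 to -39. Serpinb2 (chr1:107511173-107511422, plus strand) held the AP-1 letters at -94 to -88, and Sema7a (chr9:57939862-57940111, plus strand) held none of the 6.
Areg: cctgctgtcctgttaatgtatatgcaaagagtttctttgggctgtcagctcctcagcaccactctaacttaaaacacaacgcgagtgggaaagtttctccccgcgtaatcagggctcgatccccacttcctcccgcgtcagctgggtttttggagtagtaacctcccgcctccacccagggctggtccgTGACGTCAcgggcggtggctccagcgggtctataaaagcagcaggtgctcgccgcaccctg
Sstr2: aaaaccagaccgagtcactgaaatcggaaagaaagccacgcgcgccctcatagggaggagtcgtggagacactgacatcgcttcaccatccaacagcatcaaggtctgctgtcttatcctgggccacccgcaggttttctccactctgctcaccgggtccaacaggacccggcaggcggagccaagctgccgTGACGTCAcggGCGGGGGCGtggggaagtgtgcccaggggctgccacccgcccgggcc
Serpinb2: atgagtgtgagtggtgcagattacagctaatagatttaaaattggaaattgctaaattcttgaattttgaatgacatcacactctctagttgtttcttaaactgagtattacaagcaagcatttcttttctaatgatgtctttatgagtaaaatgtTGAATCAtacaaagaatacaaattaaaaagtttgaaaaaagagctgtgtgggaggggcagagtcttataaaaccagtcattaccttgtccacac
Sema7a: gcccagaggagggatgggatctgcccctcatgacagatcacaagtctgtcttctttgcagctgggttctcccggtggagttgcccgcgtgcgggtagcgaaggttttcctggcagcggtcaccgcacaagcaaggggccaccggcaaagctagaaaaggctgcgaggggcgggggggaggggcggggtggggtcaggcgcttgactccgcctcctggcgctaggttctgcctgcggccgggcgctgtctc

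Across all windows of this length, the AP-1 letters were present in 56 of 484 genes that rose at least 2-fold and had an entry (11.6%), in 34 of 653 that fell at least 2-fold (5.21%), and in 478 of the 10683 tested genes with an entry (4.47%). The ETS letters were rarer among both groups of changed genes (5.58% and 4.29%) than among all tested genes (13.6%). The TGACGTCA letters found in Areg and Sstr2 were in 2.48% of the genes that rose and 1.84% of those that fell at least 2-fold, against 2.75% of all tested genes. For the E-box the shares were 7.02% and 7.35% against 8.4% of all tested genes, and for the EGR letters 5.17% and 4.44% against 4.86%. These shares are descriptions of letters in a window and were not tested.

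Transcripts that report ERK signalling rose together. A published set of 10 transcripts follows ERK output across cells, and all 9 of its members that could be tested rose at least 2-fold (background 4.96%), with a median log2 fold change of 2.35 against -0.05 over all genes. Epha4, the tenth, had at most 9 counts in a library. Dusp6, the phosphatase that acts on ERK in the cytoplasm, stood at 31.1, 31.8 and 29.7 CPM with vehicle and at 445, 474 and 471 CPM with FGF6. Dusp4, its nuclear relative, stood at 11.3, 11.003 and 10.98 and 174, 179 and 178 CPM. For both genes the spread within a group was small beside the gap between groups, with log2 fold changes of 3.91 ± 0.06 and 3.99 ± 0.07.

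Sprouty proteins block the route from receptor to RAS. Spry4 rose from 8.79, 8.69 and 7.28 to 70.8, 70.5 and 73.9 CPM and Spry2 from 11.9, 11.2 and 12.5 to 94.4, 89.2 and 92.6 CPM, without overlap. Within the family, Spry3 fell from 13.1 ± 1.16 to 4.15 ± 0.211 CPM and Spry1 was at 6.55 ± 0.962 and 6.93 ± 0.868 CPM (log2 fold change 0.08 ± 0.12, edgeR adjusted p = 0.581). All 3 Spred genes, whose products hold RAF inactive, rose, by 1.91 (Spred1), 1.17 (Spred2) and 1.16 (Spred3) on the log2 scale.

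Of the 18 feedback inhibitors listed, 12 were higher and 5 lower (background 28.6% and 34.2%), 10 and 2 of them at least 2-fold. Among phosphatases that act on ERK, Dusp5 was at 44.1, 47.2 and 47.3 CPM against 498, 519 and 500.5 CPM, Dusp9 at 18.1 ± 1.33 against 83.3 ± 3.07 CPM and Dusp7 at 57.6 ± 1.34 against 92.2 ± 4.20 CPM. Among phosphatases that prefer JNK and p38, Dusp8 fell by 1.22 on the log2 scale, while Dusp10 rose by 0.59. Dusp16 was called lower at -0.14, and that call was lost without FGF6 replicate 2 (-0.105), FGF6 replicate 3 (-0.081), vehicle replicate 1 (-0.098) or vehicle replicate 3 (-0.138). Dusp1, a rapid early gene, fell from 17.2, 19.4 and 16.1 CPM to 16.2, 10.8 and 12.7 CPM, where 1 FGF6 library (16.2 CPM) overlapped the vehicle range. Without FGF6 replicate 2 its call was lost (log2 fold change -0.254, edgeR adjusted p = 0.113). Il17rd, which encodes the FGF antagonist SEF, also fell (7.36 ± 0.364 to 4.95 ± 0.363 CPM).

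**Figure D2:**
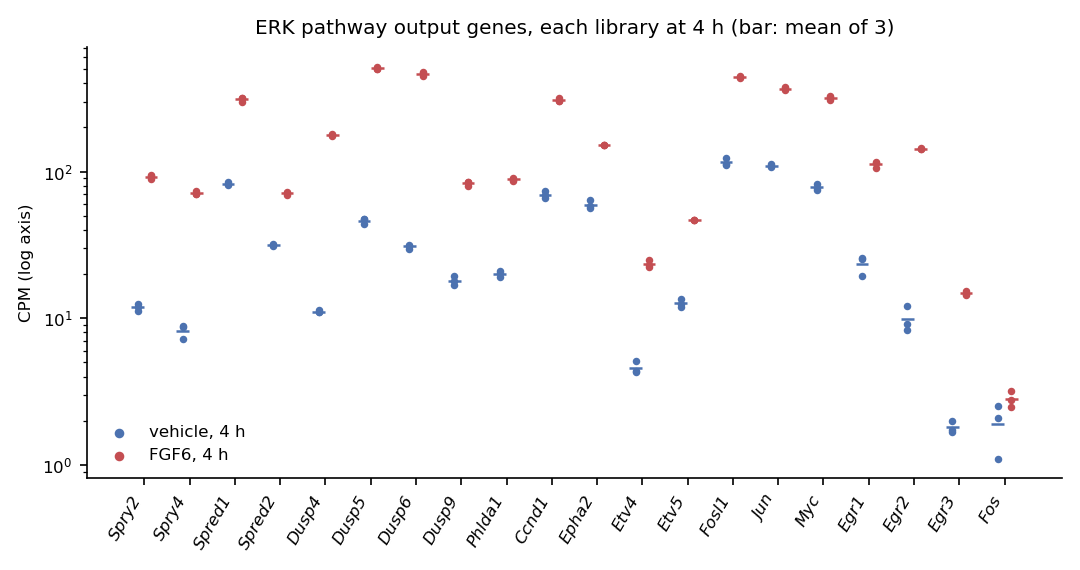
Level in CPM (vertical, log axis) of 20 output genes of the ERK pathway in each of the 3 vehicle (blue) and 3 FGF6 (red) libraries at 4 h, with a bar at the mean of 3. The 20 genes were picked for the drawing and all rose, so they do not stand for all genes of the pathway. Spry1, which was not called, is not drawn, nor are Spry3, Dusp1, Dusp8, Dusp16, Il17rd, Fosl2 and Ets2, which fell. The 2 groups lie apart for every gene drawn (66.2% of all genes tested) except Fos, whose FGF6 libraries at 2.48 to 3.22 CPM overlap the vehicle libraries at 1.10 to 2.53 CPM.

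Genes of the upstream end of the pathway moved less and in both directions. Of 13 tested FGF receptor and adaptor genes, 4 were higher (30.8%, background 28.6%) and 6 lower (46.2%, background 34.2%). Fgfr1 was at 398, 412 and 394 CPM with vehicle and 652, 684 and 683 CPM with FGF6, a rise of 0.75 on the log2 scale. Fgfr2 moved the other way, from 42.4, 43.5 and 43.3 to 12.3, 10.7 and 12.3 CPM (3.67-fold lower), and Fgfr3 fell from 5.01 ± 0.902 to 2.65 ± 0.329 CPM. Among the adaptors, Gab1 fell by 0.99 and Frs2 by 0.46, Grb2 rose by 0.30, and Shc1 (-0.02 ± 0.04, edgeR adjusted p = 0.61) and Sos1 (-0.04 ± 0.04, edgeR adjusted p = 0.403) did not pass the test. With library sizes alone both Shc1 (-0.125) and Sos1 (-0.141) were called lower.

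Of 30 other receptor tyrosine kinases tested, 8 were higher (26.7%, background 28.6%) and 13 lower (43.3%, background 34.2%), with a median of -0.10. Met, the receptor of hepatocyte growth factor, rose from 24.1, 22.7 and 24.8 to 79.4, 83.6 and 86.5 CPM. Epha2, a member of the ERK output set, rose from 63.5, 58.7 and 56.3 to 151, 152 and 151 CPM, and Ret, the receptor of the GDNF family, from 14.2 ± 1.35 to 31.6 ± 1.37 CPM. The 3 decreases of at least 2-fold were those of Erbb3 (2.90 ± 0.328 to 0.887 ± 0.232 CPM), Csf1r (3.65 ± 0.499 to 1.41 ± 0.335 CPM) and Ephb3 (49.3 ± 2.81 to 19.98 ± 0.947 CPM). The PDGF receptors, which mark these precursors, were slightly lower, Pdgfra by 0.21 and Pdgfrb by 0.34 on the log2 scale.

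Immediate early genes are switched on without new protein synthesis and usually peak soon after a stimulus. Of 27 tested, 19 were higher at 4 h (70.4%, background 28.6%) and 6 lower (22.2%, background 34.2%), with a median of 0.57. The 3 EGR genes that could be tested were all higher (background 28.6%). Egr2 was at 9.18, 12.1 and 8.35 CPM with vehicle and 142, 142 and 145 CPM with FGF6, Egr3 at 1.69, 2.01 and 1.74 and 14.5, 14.6 and 15.4 CPM, and Egr1 at 25.3, 25.8 and 19.5 and 117, 106 and 115 CPM. None of the 3 overlapped between groups, as was true of 66.2% of all genes tested.

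AP-1 is a dimer of FOS and JUN family proteins, whose genes moved in both directions. Fosl1 rose from 124, 111 and 113 to 442, 449 and 434 CPM and Jun from 112, 109 and 108 to 369, 376 and 358 CPM, and Fosb and Junb rose by 2.75 and 0.97 on the log2 scale. Fosl2 fell from 228, 212 and 214 to 125, 122 and 120.2 CPM and Jund by 0.62. Fos, the archetype of the class, was low in all 6 libraries (2.48 to 3.22 CPM with FGF6, 1.10 to 2.53 CPM with vehicle). Its rise of 0.56 ± 0.23 was called (edgeR adjusted p = 0.0358). The call was lost without FGF6 replicate 1 (0.482), FGF6 replicate 2 (0.598) or vehicle replicate 3 (0.289, all log2). It was also lost with library sizes alone (0.457) and with upper-quartile factors (0.501). Of the exonic bases, many of Fosl1 (1163 of 2033) and Jund (877 of 1668) are shared with a gene on the opposite strand, so their counts are uncertain.

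Myc, which drives ribosome production and growth, rose from 82.1, 77.2 and 74.3 to 309, 326 and 321 CPM (4.09-fold). The early genes of the IER family rose as well, Ier3 (1.77), Ier2 (1.54) and Ier5 (1.09, all log2 fold changes). Of the NR4A orphan receptors, Nr4a1 was at 0.17 ± 0.09 (edgeR adjusted p = 0.105) and Nr4a2 was at -0.14 ± 0.11 (edgeR adjusted p = 0.304). Nr4a3 was called lower at 2.03 ± 0.286 against 1.29 ± 0.444 CPM, a call that was lost without FGF6 replicate 1 (-0.633), FGF6 replicate 3 (-0.376) or vehicle replicate 1 (-0.514, log2). Btg2, an antiproliferative gene, fell by 0.88, and Srf, the factor of the serum response, by 0.29.

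ETS factors are both substrates and targets of ERK. Of 14 in the list that could be tested, 9 were higher (64.3%, background 28.6%) and 3 lower (21.4%, background 34.2%), with a median of 0.26. The PEA3 subfamily held the largest rises, with Etv4 at 5.12, 4.36 and 4.27 CPM against 24.96, 22.3 and 23.2 CPM and Etv5 at 13.4, 12.02 and 12.5 against 47.1, 46.6 and 46.6 CPM, and Etv1, a low transcript, rising from 0.269 ± 0.106 to 0.619 ± 0.0869 CPM. Elk3 and Ets1 rose by 1.02 and 0.53, Ets2 fell by 0.75 and Elf1 by 0.41, and Elk1 was at 0.02 ± 0.05 (edgeR adjusted p = 0.74).

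Over 12 families with 385 tested transcription factors, 136 were higher (35.3%, background 28.6%) and 159 lower (41.3%, background 34.2%), with a median of -0.07. After Egr2, the largest rises were those of Prdm1, a repressor that ends B cell identity, at 0.0973, 0.216 and 0.367 against 1.66, 2.55 and 2.36 CPM, and Egr3. Hmga2, an architectural chromatin protein of growing mesenchyme, rose from 141, 129.9 and 136 to 958, 959 and 953 CPM, and Sox9, the factor of chondrocyte and progenitor fate, from 42.7, 36.6 and 34.7 to 261, 267 and 249 CPM. Fosb, Foxc2 (30.6 ± 1.22 to 178 ± 10.3 CPM), Tgif1, which represses SMAD targets (51.5 ± 2.31 to 295 ± 3.48 CPM), Klf5 (3.22 ± 0.385 to 18.2 ± 0.746 CPM) and Ahr, the aryl hydrocarbon receptor (28.2 ± 0.680 to 146 ± 11.98 CPM), completed the 10.

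The 10 largest decreases of transcription factors began with Atoh8, a basic helix-loop-helix factor, at 76.4, 83.0 and 75.6 CPM with vehicle and 7.32, 7.36 and 7.35 CPM with FGF6. Maf, a large MAF factor, fell from 35.3, 32.0 and 34.9 to 4.36, 4.11 and 3.74 CPM. Next to these, Id3 (199.5, 215 and 211 to 31.4, 34.0 and 30.7 CPM) and Id4 encode inhibitors of DNA binding that BMP signalling induces, and Smad9 encodes a SMAD of the BMP pathway (23.8, 24.4 and 23.7 to 4.92, 4.94 and 4.83 CPM). In each of these the FGF6 libraries lay together, well under the vehicle range. Esr1, the oestrogen receptor alpha (4.98 ± 0.238 to 0.841 ± 0.0253 CPM), Nfatc4 (46.7 ± 0.518 to 8.15 ± 0.146 CPM), Snai2, a repressor of epithelial genes (143 ± 5.59 to 38.4 ± 1.43 CPM), Mxd4, an antagonist of MYC (60.1 ± 4.01 to 16.6 ± 1.08 CPM), and Nfil3 (52.7 ± 2.00 to 15.5 ± 1.13 CPM) were the others.

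**Figure D3:**
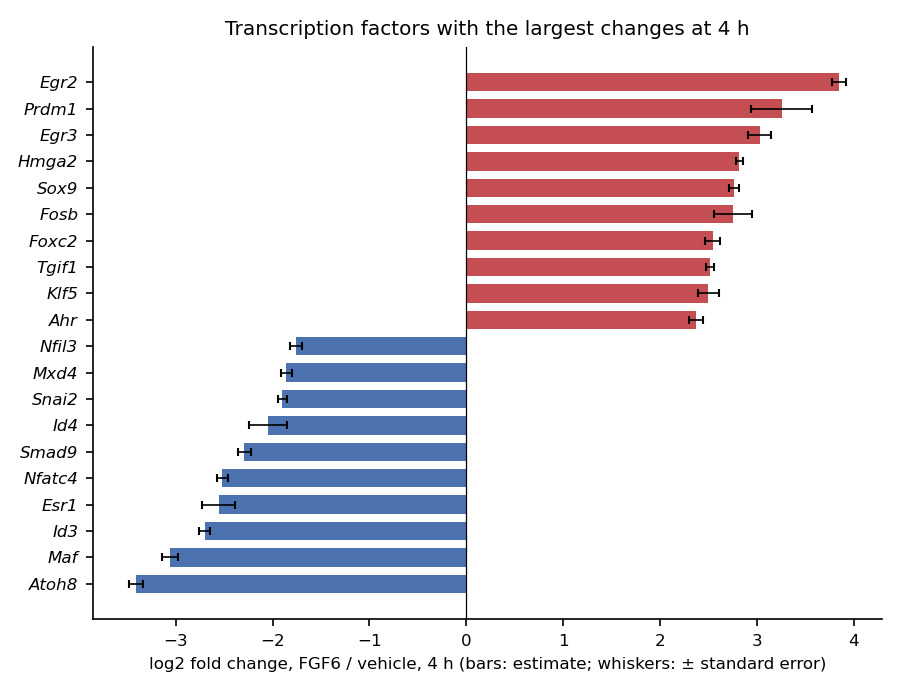
Log2 fold change of FGF6 over vehicle at 4 h for the 10 largest increases (red) and the 10 largest decreases (blue) among transcription factors, with whiskers of ± 1 standard error from edgeR. Estimates run from 3.85 for Egr2 to -3.41 for Atoh8, and the whisker is widest for Prdm1, at 0.31.

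Families differed in direction. Homeobox genes, which set positional identity, were mostly down, with 44 of 73 lower (60.3%, background 34.2%) and 11 higher. Hoxa7 fell by 1.96, Hoxa10 by 1.57, Msx2 by 1.51 and Prrx2 by 1.49, and the exceptions were led by Tgif1, Dlx3 (1.70) and Zeb1 (1.31, log2). Of 8 SOX factors, 6 were higher (75%, background 28.6%) and 1 lower (12.5%, background 34.2%). Beside Sox9 these included Sox5 (1.40) and Sox2, for which the vehicle libraries held 2, 1 and 0 counts and the ratio of summed counts was 20.2 (95% interval 6.56 to 101, counting error only), whereas Sox8 fell by 2.17. Of 30 nuclear receptors, 7 were higher (23.3%, background 28.6%) and 12 lower (40%, background 34.2%), near the shares over all genes. Nr3c2, the mineralocorticoid receptor, fell by 2.00, Vdr, the vitamin D receptor, by 1.32, while Esrra rose from 35.6 ± 1.17 to 58.1 ± 1.15 CPM.

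RUNX, TEAD and T-box genes gave single rises, namely Tbx3 (1.87), Runx1 (1.45), Tead4 (1.44) and Runx2 (1.37). They belong to a mixed group of 23, with 7 higher (30.4%, background 28.6%) and 9 lower (39.1%, background 34.2%). Of 18 KLF and SP factors, 9 were higher (50%, background 28.6%) and 5 lower (27.8%, background 34.2%), with Klf16 (1.31) second to Klf5. Of 24 forkhead factors, 13 were higher (54.2%, background 28.6%) and 9 lower (37.5%, background 34.2%). Foxc2 was foremost among the increases, and the FoxO genes were among the decreases.

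Secreted signals held many of the strong increases. Among EGF receptor ligands, 4 rose more than 4-fold. Beside Areg and Ereg, Hbegf, the heparin-binding ligand, went from 14.2, 14.2 and 14.8 to 151, 151 and 157 CPM, and Btc, betacellulin, from 9.83, 10.04 and 12.98 to 46.3, 50.1 and 44.5 CPM. Tgfa was near the limit of detection in all 6 libraries (0.09 ± 0.52, edgeR adjusted p = 0.89). The neuregulin gene Nrg1 fell by 0.60 and Egf by 0.58. Of the receptors, Egfr rose from 65.8 ± 2.23 to 89.5 ± 5.81 CPM, Erbb2 was at 78.5 ± 2.54 and 83.0 ± 2.67 CPM (edgeR adjusted p = 0.107) and Erbb3 fell. In all, 5 of 10 tested members of this list were higher (50%, background 28.6%) and 3 lower (30%, background 34.2%).

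Among 33 tested cytokines and growth factors, 22 were higher (66.7%, background 28.6%) and 8 lower (24.2%, background 34.2%), with a median of 0.71. At least 2-fold, 12 rose and 5 fell (background 4.96% and 6.38%). Lif, of the IL-6 family, rose from 3.15, 2.60 and 2.64 to 37.2, 31.3 and 35.8 CPM, and Il33, an alarmin, from 1.98, 2.75 and 2.27 to 26.5, 29.0 and 26.7 CPM. Csf3, which encodes the granulocyte factor G-CSF, had 2, 2 and 0 counts with vehicle and 49, 45 and 35 with FGF6, a ratio of 36.2 (95% interval 13.8 to 135, counting error only).

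Inhba, the activin subunit, rose from 16.5, 14.8 and 16.1 to 158, 141 and 143 CPM. Vegfa, the main angiogenic factor, rose from 434, 442 and 441 to 1192, 1171 and 1114 CPM. Ccl2 and Csf1, which attract and sustain monocytes, rose by 1.12 and 0.71 on the log2 scale. Il6 did not pass the test (16.2 ± 0.810 and 13.9 ± 1.54 CPM, edgeR adjusted p = 0.142), and with library sizes alone it was called lower (-0.313).

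Decreases in this list held the stromal chemokine Cxcl12, which lay at 2064, 2099 and 2169 CPM with vehicle and 439, 499 and 507 CPM with FGF6. Cxcl5 fell from 512 ± 25.2 to 166 ± 5.16 CPM and Cxcl1 by 0.78 on the log2 scale. Igf1 fell by 1.33 and Fgf10, an FGF ligand of mesenchyme, by 0.89, while Fgf7, its close relative, rose by 0.32.

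Proteases of the cell surface and matrix moved in both directions. Of 24 tested, 10 were higher (41.7%, background 28.6%) and 10 lower (41.7%, background 34.2%). Plaur, the urokinase receptor, rose from 42.4, 42.1 and 43.4 to 209.6, 206 and 201 CPM and Timp1, an inhibitor of metalloproteases, from 355 ± 9.55 to 1242 ± 31.2 CPM, while Plau, urokinase itself, was at 37.8 ± 2.38 and 37.6 ± 2.12 CPM (edgeR adjusted p = 0.959). The collagenase and stromelysin genes Mmp13 and Mmp3 rose by 2.46 and 1.93. Mmp10 had no count in the vehicle libraries and 10, 3 and 2 counts with FGF6. Only the first of these lay above the floor of 3 counts, so no fold change is given.

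The ADAMTS proteases that cleave aggrecan and versican went down. Adamts5 was at 126, 129 and 125 CPM with vehicle and 18.8, 17.8 and 20.3 CPM with FGF6, Adamts1 at 161, 164 and 165 and 40.9, 42.7 and 41.6 CPM, and Adamts15 was among the 12 largest decreases. Mmp11 fell by 1.37, Mmp2 by 0.65 and Mmp14 by 0.54. Of 9 hyaluronan genes, 6 were higher (66.7%, background 28.6%) and 2 lower (22.2%, background 34.2%). All 3 synthases rose, Has1 from 3.53, 3.62 and 2.84 to 17.6, 14.4 and 15.2 CPM, Has2 from 19.5, 18.6 and 18.1 to 45.0, 40.8 and 41.0 CPM and Has3 by 0.64, as did the receptor Cd44 (199.9 ± 4.22 to 463 ± 6.99 CPM). Tnfaip6 and Hmmr, which bind hyaluronan, fell by 0.77 and 0.78, and the hydrolase Hyal1 was at 0.01 ± 0.09 (edgeR adjusted p = 0.944).

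The 12 largest losses at 4 h ranged from 9.28-fold upwards. Rasl11a, a RAS-like GTPase, was at 89.3, 92.4 and 96.1 CPM with vehicle and 3.25, 3.41 and 2.97 CPM with FGF6, which is 28.7-fold lower (-4.84 ± 0.07, edgeR adjusted p = 3.57e-25). Dchs2, an atypical cadherin, had 108, 82 and 101 counts with vehicle and 2, 3 and 1 with FGF6, a ratio of 43.2 (95% interval 19.6 to 119, counting error only). Bmp4, the ligand of fat lineage commitment, fell from 1.91, 2.13 and 1.67 to 0.0740, 0.127 and 0.163 CPM. Wnt16, a WNT ligand, fell from 3.79, 3.12 and 2.60 to 0.111, 0.127 and 0.325 CPM, and Bmf, a cell death activator of the BCL2 family, from 3.73, 3.77 and 4.41 to 0.259, 0.287 and 0.325 CPM.

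No vehicle library overlapped an FGF6 library in any of the 12, as the naming rule required, and over all genes tested the groups did not overlap for 66.2%. The remaining 7 were Adamts15 (5.62 ± 0.639 to 0.364 ± 0.103 CPM), Atoh8, Kcne4, an accessory subunit of potassium channels (5.03 ± 0.534 to 0.496 ± 0.211 CPM), the muscle proteins Lmod1 (10.4 ± 1.21 to 1.05 ± 0.153 CPM) and Ldb3 (6.72 ± 0.813 to 0.709 ± 0.288 CPM), Tent5b, an RNA nucleotidyltransferase (14.6 ± 0.243 to 1.498 ± 0.496 CPM), and Kbtbd11 (21.5 ± 2.36 to 2.29 ± 0.671 CPM). Dchs2 shares 1299 of 10783 exonic bases, Bmp4 89 of 2248 and Kbtbd11 1772 of 7137 with genes on the opposite strand. The muscle regulator Myog fell as well, to 1.29, 1.15 and 1.26 CPM, and the summed level of the 4 tested myogenic markers went from 8.28 to 10.4 CPM with vehicle to 4.84 to 5.24 CPM with FGF6. Their part in the losses of Lmod1 and Ldb3 was not tested. The call of Myod1 (-0.55) was lost without FGF6 replicate 1 (-0.419) or vehicle replicate 1 (-0.477).

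Beside Bmp4, several BMP targets fell. The list as a whole was split. Of 17 tested genes of BMP and TGF-beta feedback, 7 were higher (41.2%, background 28.6%) and 7 lower (41.2%, background 34.2%), with a median of 0.06. At least 2-fold, 4 rose and 5 fell (background 4.96% and 6.38%). All 4 ID genes, the classical BMP targets, were among the lower ones. Id1, at 154, 156 and 156 CPM with vehicle, was at 91.4, 97.8 and 86.4 CPM with FGF6, and Id2 went from 60.5, 64.2 and 65.1 to 23.2, 26.2 and 25.4 CPM. Smad6, the inhibitory SMAD that BMP induces, fell from 63.5, 62.2 and 59.6 to 24.7, 24.1 and 19.9 CPM. Members of the list that rose included Smad7 (by 0.57), Tgfb1 (1.16) and Tgfbi (1.14, log2). The secreted BMP antagonist Grem1 rose as well, from 931 ± 47.5 to 1810.1 ± 76.5 CPM. Tgfb2 fell by 0.99, and Bambi was at -0.05 ± 0.10 (edgeR adjusted p = 0.681).

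FoxO factors are held out of the nucleus when AKT is active. Of 22 genes that include them and genes they activate, 15 were lower and 4 higher (68.2% lower, background 34.2%), with a median of -0.70. Txnip, an inhibitor of glucose uptake that responds to several inputs, fell from 67.6, 75.6 and 78.1 to 12.1, 9.50 and 8.61 CPM and Irs2, the insulin receptor substrate, from 47.4, 46.6 and 44.8 to 17.9, 17.9 and 15.8 CPM. Sesn1 fell by 1.29, Ccng2 by 1.07, Pdk4 by 1.03 and Cdkn1b, the CDK inhibitor p27, by 0.80. Foxo1 itself fell from 52.9 ± 2.19 to 26.5 ± 1.99 CPM. Exceptions included Bcl6, which rose by 1.82, Bcl2l11 by 0.61 and Irs1 by 0.58.

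WNT and Notch genes changed singly. Of 15 tested WNT inhibitors and targets, 3 were higher (20%, background 28.6%) and 6 lower (40%, background 34.2%). Rspo2, which amplifies WNT signalling, fell from 50.04, 51.6 and 54.7 to 8.13, 9.40 and 8.41 CPM, and the secreted inhibitors Dkk3 and Sfrp2 fell by 1.61 and 1.08. Dkk2 and Lef1 rose by 2.20 and 1.88. Of 8 tested Notch genes, 3 were higher (37.5%, background 28.6%) and 1 lower (12.5%, background 34.2%). Jag1 and Notch1 were up by 1.21 and 0.93, Notch3 was down at -1.28 and the target Hes1 was at 0.13 ± 0.08 (edgeR adjusted p = 0.186).

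Of 22 tested adipogenic genes, 10 were lower (45.5%, background 34.2%) and 5 higher (22.7%, background 28.6%). The summed level of 4 tested fat cell markers was 101.7 to 107.1 CPM with vehicle and 89.05 to 97.65 CPM with FGF6, and Lep had no count. Pparg, the master regulator of fat cells, was at 58.9, 55.2 and 58.6 CPM with vehicle and 30.2, 29.6 and 27.6 CPM with FGF6, without overlap. Lpl, lipoprotein lipase, fell from 1448 ± 65.2 to 543 ± 10.7 CPM, Ppargc1a from 4.31 ± 0.351 to 1.87 ± 0.398 CPM and Plin1, a lipid droplet protein at trace level, from 1.95, 1.27 and 1.90 to 0.222, 0.0956 and 0.0406 CPM. Cebpa and Cebpb fell by 0.29 and 0.65, Cebpd rose by 0.45, and Klf5, a factor of early fat cell development, rose. Plin2, which coats droplets in most cells, rose from 175 ± 3.65 to 348 ± 13.3 CPM. Fabp4 (-0.08 ± 0.05, edgeR adjusted p = 0.133) and Ebf2 (-0.09 ± 0.05, edgeR adjusted p = 0.107) did not pass the test with TMM factors and were called lower with library sizes alone. Ucp1 had no count in any of the 6 libraries at 4 h.

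Genes of the contractile cytoskeleton were lower as a group, 11 of 16 (background 34.2%) with 1 higher (0 with library sizes alone), by a median of -0.23. Acta2, smooth muscle actin, fell from 883, 915 and 923 to 543, 498 and 508 CPM, Myl9 by 1.22 and Cnn2 by 0.93. Tagln was at -0.01 ± 0.04 (edgeR adjusted p = 0.813), and with library sizes alone it was called lower (-0.112). Clock genes were split, 6 of 17 higher (35.3%, background 28.6%) and 7 lower (41.2%, background 34.2%). Nr1d1 rose from 13.1, 13.7 and 13.6 to 33.6, 33.7 and 32.2 CPM and Arntl by 0.61, whereas Per3 fell by 0.78, Dbp by 0.62 and Npas2, a low transcript, without overlap (0.357 to 0.701 CPM with vehicle, 0.0370 to 0.0637 CPM with FGF6).

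Ribosome biogenesis genes rose nearly throughout. Of 40 nucleolar and RNA polymerase I genes, 39 were higher and none lower (97.5%, background 28.6%), by moderate amounts (median 0.68). Rrp9, a component of the U3 particle that processes ribosomal RNA, rose from 67.8, 71.6 and 71.8 to 159, 163 and 159 CPM and Polr1b, a polymerase I subunit, from 55.03, 53.3 and 55.1 to 106, 116 and 116 CPM. These were the 2 genes of the list past 2-fold. Nop2 rose from 217 ± 2.13 to 422 ± 5.57 CPM, Ncl, nucleolin, from 1102 ± 23.5 to 1759.7 ± 52.4 CPM and Npm1, nucleophosmin, from 284 ± 11.8 to 434 ± 8.56 CPM. Ubtf, the polymerase I activator, was at 0.05 ± 0.03 (edgeR adjusted p = 0.191). The call of Nop10 (0.16) was lost without FGF6 replicate 3 (0.139), vehicle replicate 1 (0.124) or vehicle replicate 2 (0.155). It was also lost with library sizes alone (0.057) and with upper-quartile factors (0.102). The ETS letters were in the upstream windows of 8 of 36 of these genes with an entry (22.2%, 13.6% of all tested genes) and the E-box letters in 2.

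Other growth genes moved in part. Of 10 polyamine genes, 7 were higher (70%, background 28.6%) and 2 lower (20%, background 34.2%). Odc1, the rate-limiting enzyme of polyamine synthesis, rose from 53.3, 50.8 and 54.3 to 151, 154 and 155 CPM, Sat1, which starts their breakdown, by 1.07 and Srm by 0.62, and Oaz2, an inhibitor of Odc1, fell by 0.52. Of 20 glycolysis genes, 8 were higher (40%, background 28.6%) and 4 lower (20%, background 34.2%). With library sizes alone these were 5 and 9. Slc2a1, the glucose transporter GLUT1, rose from 204, 203 and 213 to 524, 542 and 527 CPM, Hk2 from 65.9, 66.0 and 66.8 to 167, 173 and 167 CPM and Pfkfb3 and the lactate transporter Slc16a1 by 0.68 and 0.51. Aldoa (0.02 ± 0.03, edgeR adjusted p = 0.649) and Ldha (0.02 ± 0.03, edgeR adjusted p = 0.575) did not pass and turned negative with library sizes alone, and Pfkm and Eno2 fell by 0.95 and 0.89.

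Of 27 genes of G1 and S phase, 11 were higher (40.7%, background 28.6%) and 7 lower (25.9%, background 34.2%), or 6 and 13 with library sizes alone. Ccnd1, cyclin D1, rose from 73.8, 69.3 and 65.8 to 303, 318 and 304 CPM, with Cdk6 and E2f3 up by 0.82 and 0.74. CDK inhibitors split, since Cdkn1a, p21, rose by 1.02 while Cdkn2d, Cdkn2b and Cdkn1b fell by 1.39, 1.26 and 0.80. Cdk4 (-0.02 ± 0.03, edgeR adjusted p = 0.43) and the replication helicase gene Mcm2 (0.02 ± 0.03, edgeR adjusted p = 0.557) did not pass. With library sizes alone Cdk4 (-0.126) and Mcm2 (-0.080) were called lower, Cdk4 also with upper-quartile factors (-0.081).

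Amino acid response genes changed by small amounts, with a median log2 fold change of 0.18 against -0.05 over all genes. Of 22 targets of ATF4 and tRNA synthetases, 13 were higher (59.1%, background 28.6%) and 5 lower (22.7%, background 34.2%), none 2-fold. With library sizes alone 8 were lower. Transporters rose (Slc7a11 by 0.89, Slc7a5 by 0.71) while the stress genes Sesn2, Atf5 and Trib3 fell by 0.73, 0.63 and 0.51. Of 23 sterol synthesis genes, 8 were higher (34.8%, background 28.6%) and 9 lower (39.1%, background 34.2%), none 2-fold. With library sizes alone 5 were higher. Mvk and Hmgcs1 were down at -0.73 and -0.40 on the log2 scale.

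**Figure D4:**
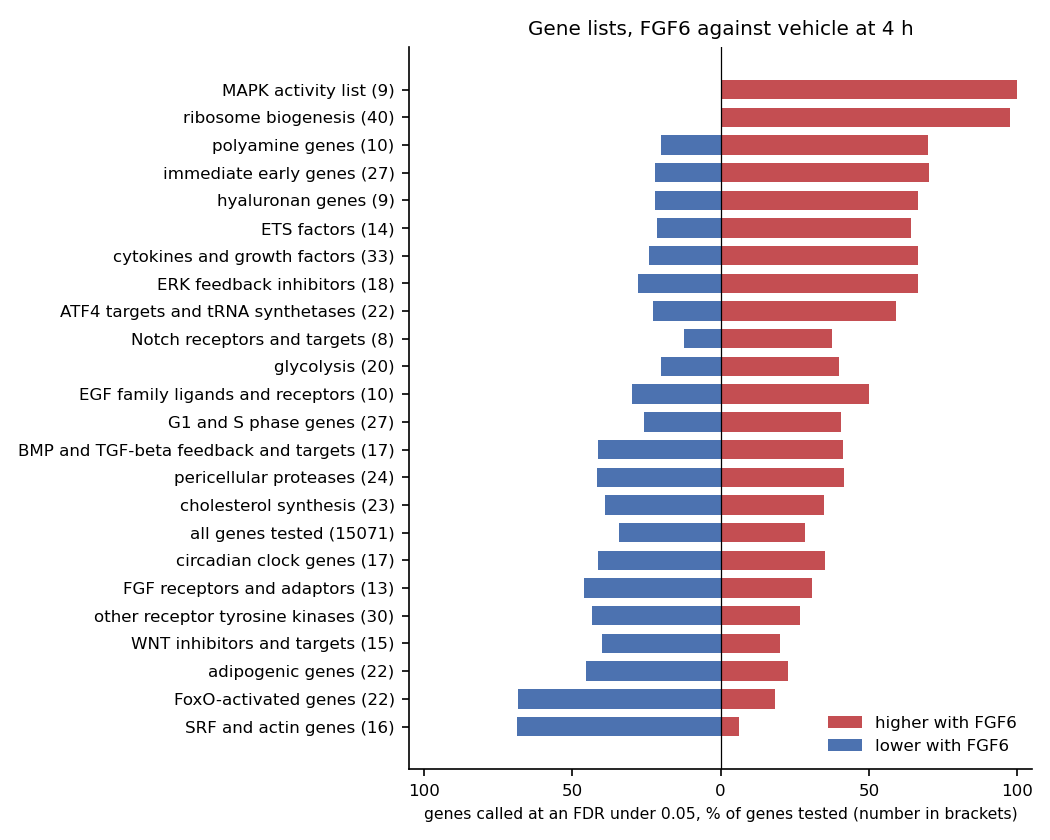
Share of the tested genes of each list that were higher (right, red) or lower (left, blue) with FGF6 at 4 h at an adjusted p under 0.05, with the number tested in brackets. The ERK output set (100% higher) and ribosome biogenesis (97.5% higher) lie at one end and the FoxO (68.2% lower) and actin (68.8% lower) lists at the other, beside 28.6% higher and 34.2% lower over all genes.

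Most of the early response was present at the later times, each of which had its own vehicle libraries. Of the 748 genes at least 2-fold higher at 4 h, 590 (78.9%) were so at 8 h, where they made up 53% of the 1114 such genes (7.39% of those tested), and 493 (65.9%) at 24 h, 43.9% of 1122 (7.44%). Of the 962 lower genes, 763 (79.3%) were so at 8 h, 46.4% of 1645 (10.9%), and 675 (70.2%) at 24 h, 29.2% of 2309 (15.3%). A change called in the opposite direction at 24 h was found for 50 of the 748 and for 16 of the 962. These comparisons share the fit but no libraries.

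Among the 12 largest increases, 3 had smaller effects at 24 h than at 4 h. The genes were chosen by their effect at 4 h, which favours smaller effects at later times. The effect on Egr2 was 3.85 at 4 h, 3.89 at 8 h and 0.99 at 24 h on the log2 scale, and the drop of 2.86 between 4 and 24 h passed edgeR's test (adjusted p = 4.58e-15). Aldh1a3 and Scml4 went down in the same way, to 1.24 and 1.01 at 24 h. Areg (8.24), Slc14a1 (7.06) and Sema7a (6.03) had larger effects at 8 h than at 4 h, whereas for Serpinb2 and Sstr2 no difference from the effect at 4 h passed the test. Of the decreases, Atoh8 (-4.58) and Kbtbd11 (-4.72) were deeper at 24 h, and Rasl11a recovered in part, from -4.84 to -3.86. Kcne4 (-4.28) and Lmod1 (-4.37) were also called deeper at 24 h, calls that were lost without FGF6 replicate 1 (a difference of -0.528 for Kcne4) and without FGF6 replicate 3 (-0.916 for Lmod1).

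**Figure D5:**
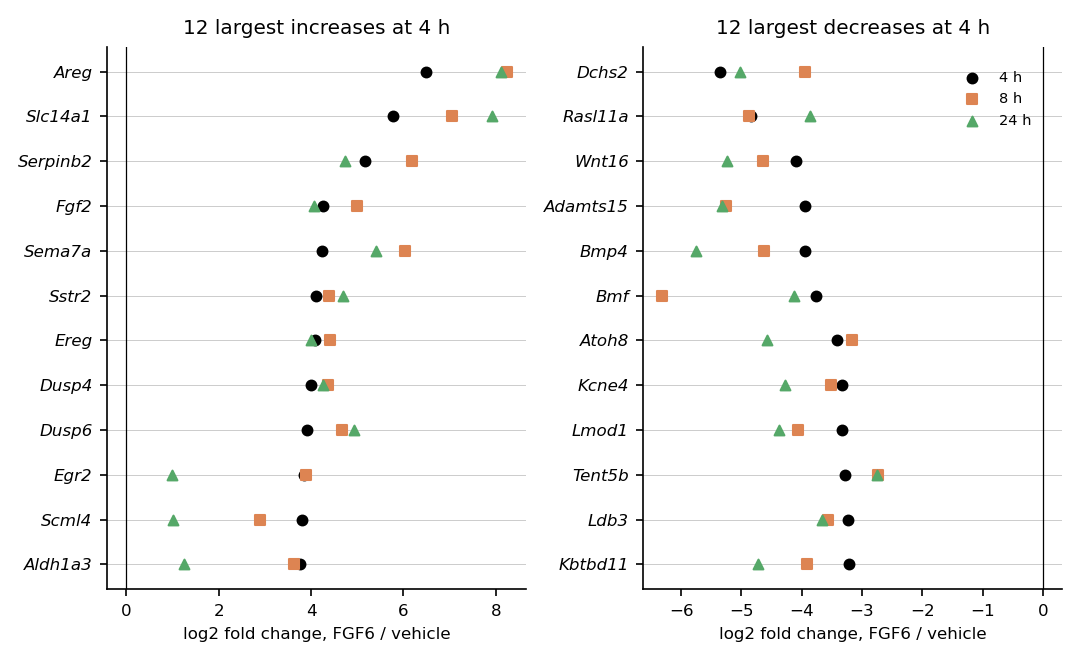
Log2 fold change of FGF6 over vehicle at 4 h (black circles), 8 h (orange squares) and 24 h (green triangles) for the 12 largest increases (left) and the 12 largest decreases (right) at 4 h. Egr2, Scml4 and Aldh1a3 return to 0.99, 1.01 and 1.24 at 24 h, and the other 21 genes stay at 2.74 or beyond in the direction seen at 4 h at every time point.

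The median span of protein-coding genes was 28.1 kb among those at least 2-fold higher, 22.3 kb among those at least 2-fold lower and 24.1 kb among all tested. Genes that changed had lower counts, with a median of 5.86 CPM (higher) and 3.97 CPM (lower) in the vehicle libraries against 33.5 CPM over all tested genes, all for protein-coding genes.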

How the data were processed

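RNA was sequenced from 18 libraries (FGF6 and vehicle at 4, 8 and 24 h, 3 each). The authors aligned the reads with STAR to GRCm38 and counted them per gene with featureCounts of the Subread package, and they deposited raw counts, not normalized. Tool versions, the strand setting and the treatment of reads with several matches are not given in the sources used here. Genes were filtered with filterByExpr by group, scaled with TMM factors and tested with edgeR 4.0.16 (R 4.3.3) by the quasi-likelihood F test on all 18 libraries as 6 group means, with Benjamini-Hochberg adjustment over 15071 genes. CPM used the TMM-scaled totals. Standard errors were taken from the F statistic, and intervals and floors (3 counts) cover counting error only. On data simulated for the 4 h comparison, 34 of 48 genes changed 1.5-fold, 43 of 50 changed 2-fold and 49 of 49 changed 8-fold were recovered, with 6 false calls among 14500 unchanged genes. Few genes were changed there, in both directions, whereas 62.8% of genes were called in the data. The simulation thus meets the assumption of TMM and does not measure errors that the scaling may bring to the real calls. Members and gene lists were chosen with earlier results of these data known, so lists are described by counts and medians with no set test. Genes named were the 12 largest increases and decreases (adjusted p under 0.05, groups not overlapping, mean of at least 1 CPM), the 10 largest of each among transcription factors, and members of the lists. Some family members and markers outside these rules were named after their values were seen. Alternatives used limma 3.58.1 with voom, DESeq2 1.42.0, other scalings, filters and thresholds, the replicate number as a block, and each library left out. Promoter windows came from RefSeq and gene positions from GENCODE on GRCm38. Values of some list members are not reported here.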

Additional observations from a re-analysis of the deposited data

Results flagged for a closer look

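Groups of 3 libraries are too small for an outlier test, so the results given here are genes among the 24 largest changes whose FGF6 effect at a later time differed from that at 4 h by the interaction contrast in edgeR, adjusted over all genes tested. The tests reuse the 4 h values that chose the genes, which favours smaller effects at later times. All differences are on the log2 scale, later time minus 4 h.

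Among the increases, the effect was larger at 8 h than at 4 h for Sema7a (1.79, edgeR adjusted p = 7.59e-14), Areg (1.76, 0.00146), Slc14a1 (1.29, 0.000137), Dusp6 (0.77, 3.13e-07), Fgf2 (0.74, 0.000533), Dusp4 (0.37, 0.0193) and Ereg (0.31, 0.0179). At 24 h it was larger for Slc14a1 (2.14, edgeR adjusted p = 1.73e-08), Areg (1.64, 0.00017), Sema7a (1.17, 7.08e-12), Dusp6 (1.02, 1.05e-09) and Dusp4 (0.26, 0.0444). It was smaller at 24 h for Egr2 (-2.86, edgeR adjusted p = 4.58e-15), Scml4 (-2.79, 0.00037) and Aldh1a3 (-2.54, 2.57e-05).

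Among the decreases, the loss was deeper at 8 h for Bmf (-2.56, edgeR adjusted p = 0.00237), Adamts15 (-1.32, 0.0228) and Kbtbd11 (-0.70, 0.0256), and shallower for Tent5b (0.54, 0.0394). At 24 h it was deeper for Kbtbd11 (-1.51, edgeR adjusted p = 3.9e-06), Adamts15 (-1.38, 0.0159), Atoh8 (-1.17, 3.07e-06), Lmod1 (-1.05, 0.0175) and Kcne4 (-0.94, 0.0187), and shallower for Rasl11a (0.98, 7.89e-07) and Tent5b (0.53, 0.029).

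With voom in limma, 6 of the 11 differences at 8 h were called, and those lost were Adamts15 (-1.322, limma adjusted p = 0.0513), Tent5b (0.58, 0.054), Ereg (0.317, 0.0664), Kbtbd11 (-0.665, 0.0932) and Dusp4 (0.371, 0.0962). At 24 h voom lost Lmod1 (-0.989, limma adjusted p = 0.0603) and Dusp4 (0.259, 0.138). Single libraries decided some calls. At 8 h the call was lost without FGF6 replicate 1 for Adamts15 (-1.057), without FGF6 replicate 2 (-0.461) or 3 (-0.65) for Kbtbd11, and without FGF6 replicate 2 (0.505) or 3 (0.387) or vehicle replicate 2 (0.539) or 3 (0.535) for Tent5b. At 24 h it was lost without FGF6 replicate 1 for Kcne4 (-0.528) and Adamts15 (-1.118), without FGF6 replicate 3 for Lmod1 (-0.916), without FGF6 replicate 2 (0.494) or 3 (0.376) for Tent5b, and without FGF6 replicate 1 (0.267) or vehicle replicate 1 (0.246), 2 (0.268) or 3 (0.269) for Dusp4.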

How the results depend on the processing

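Scaling and the choice of libraries moved the balance of directions. Library sizes alone gave 3242 genes higher and 6495 lower, and upper-quartile factors 3717 and 5900, against 4308 and 5152 with TMM. Only the 6 libraries at 4 h gave 4612 and 4589, and DESeq2 gave 4452 and 4733. Library sizes alone also changed the counts higher to 6 (G1 and S phase), 5 (cholesterol synthesis), 5 (glycolysis) and 0 (SRF and actin), the counts lower to 13 (G1 and S phase), 9 (glycolysis) and 8 (ATF4 targets), and the log2 fold changes of Aldoa to -0.085, Ldha to -0.082 and Mcm2 to -0.080. Under that scaling Cdk4, Shc1, Sos1, Tagln, Il6, Fabp4 and Ebf2 were called lower, and Fos and Nop10 lost their calls. The SRF and actin list had 2 genes higher with DESeq2, with only the 6 libraries at 4 h and at an adjusted p under 0.25, and 1 to 2 with a library left out. ERK feedback inhibitors lower numbered 3 to 5 with a library left out, the lowest without FGF6 replicate 2. Requiring 10 counts in each library tested 13000 genes and gave 506 genes at least 2-fold higher and 602 lower, against 748 and 962. With voom, 6 of the 24 genes had a different effect at 8 h, against 11. The cause was not tested beyond what the scaling and the filter themselves fix. With a library left out, 4089 to 4381 genes were higher and 4529 to 4974 lower. Deviations of same-numbered libraries at 4 h had correlations over all genes of 0.0144, 0.0249 and -0.012. Those of differently numbered libraries ran from -0.0415 to 0.0258. Values this near 0 cannot tell whether libraries of 1 number share a culture or a day, because noise of weakly expressed genes enters them. The replicate block gave 4300 genes higher and 5165 lower.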
